A study of Mus musculus with 16 samples.

Results

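The PGC-1 coactivators and the genes that keep up and transcribe the mitochondrial genome were described here as 10 genes in mouse kidney cortex: Ppargc1a, Ppargc1b, Pprc1, Nrf1, Gabpa, Esrra, Tfam, Tfb2m, Polrmt and Lonp1. They were found by matching the Ensembl IDs of the count table to these symbols in GENCODE M21, and all 10 of the 10 were present among 55414 genes. The 10 genes were selected with earlier results from these libraries known, so their levels across the groups are given as a description. Where the calls of the fits over all genes are counted for them, nothing is read from those calls. All 10 passed the filter on low counts, which kept 16126 genes.

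The study ran polyA RNA sequencing on flash-frozen cortex of wild-type male C57BL/6J mice, with 4 libraries in each of 4 groups. Sedentary mice (Sed) were the control, and the other groups ran on a forced treadmill for 40 minutes at 70% capacity over 1 day (24 h), 1 week (1 wk) or 2 weeks (2 wk). No age, transgene or drug is named, and nothing beyond strain and sex is said to be shared by the groups. Whether each library is from its own animal is not stated, and the p-values therefore reflect only how these libraries vary, which could be technical variation. Whether the 24 h mice ran within 1 day or were killed 24 h after a single run is not stated, and a title letter that separates all running from all sedentary libraries cannot be told apart from exercise.

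PGC-1α, PGC-1β and PRC, encoded by Ppargc1a, Ppargc1b and Pprc1, are coactivators without DNA binding of their own that are recruited by transcription factors such as NRF1, GABPA and ERRα to genes of oxidative metabolism. Among the targets are the nuclear genes for the mitochondrial transcription machinery: TFAM, which coats and bends mitochondrial DNA, TFB2M, which opens the promoter, and POLRMT, the single-subunit RNA polymerase. In the kidney cortex most mitochondria belong to the proximal tubule, whose transport work rests on oxidative phosphorylation, and in skeletal muscle PGC-1α is known as an exercise-responsive gene.

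Library totals ranged from 39766260 to 66852397 counts. Levels are normalised counts (CPM, the count scaled to a fixed library size) after TMM scaling, a correction of library size for composition. Among 15 marker lists the proximal tubule markers summed to between 47452 and 65018 CPM, so those of the labelled tissue were present. Adrenal cortex markers summed to 3.39 CPM in replicate 1 of the 1 wk group, 8.62 times the median library. They were at or under 0.509 CPM in every other library, and Cyp11b2 was at 0 in all. No list separated the 24 h libraries from the sedentary ones. The intercalated cell and red blood cell lists lay above the sedentary range in all 4 libraries at 2 wk, the T cell list lay below it at 1 wk and 2 wk, and the endothelial list lay below it at 1 wk. By edgeR 2 of 16126 genes differed among the 4 groups at an adjusted p under 0.05, and 1407 had an unadjusted p under 0.05.

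To compare genes with each other, CPM was divided by the exonic length in kilobases. In sedentary cortex the order was Lonp1 (44.3 ± 5.23 CPM per kb, SD, n = 4), Esrra (40.0 ± 1.88), Tfam (12.3 ± 0.556), Polrmt (9.32 ± 0.601), Tfb2m (4.84 ± 0.424), Gabpa (4.73 ± 0.219), Ppargc1a (4.43 ± 0.46), Nrf1 (1.34 ± 0.0946), Pprc1 (1.32 ± 0.112) and Ppargc1b (1.16 ± 0.101). Lonp1 and Esrra stood at percentiles 92.5 and 91.8 of the tested genes, and Ppargc1b at 35.9. The ranges of the sedentary libraries overlapped between Lonp1 and Esrra, Tfb2m and Gabpa, Gabpa and Ppargc1a, Nrf1 and Pprc1, and Pprc1 and Ppargc1b. These neighbours were therefore not separated beyond their spread. The nuclear receptor Esrra was thus about as abundant per length as the protease Lonp1, and all 3 coactivators were far below it. In bulk tissue, fewer cells of a type and less RNA per cell cannot be told apart, for these levels and for every difference given here.

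**Figure D1:**
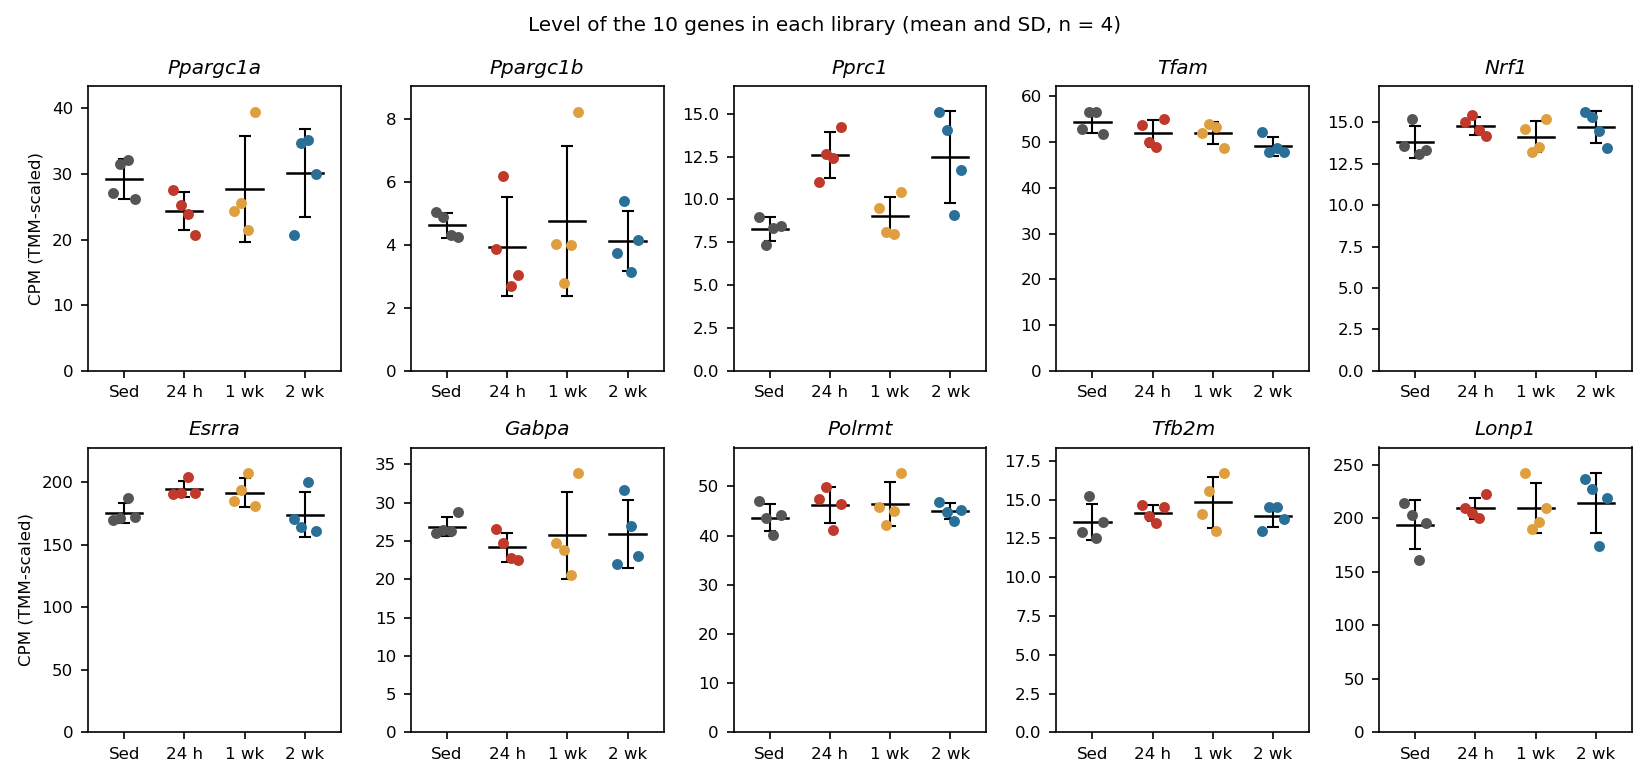
Level of each of the 10 genes in CPM (y axis, from 0) in the sedentary group and after 24 h, 1 wk and 2 wk of running (x axis). Points are libraries and bars are the mean and SD of 4; the Pprc1 points at 24 h lie between 11.02 and 14.2 CPM, above the sedentary points at 7.32 to 8.995 CPM.

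Pprc1 (ENSMUSG00000055491; GRCm38 chr19:46044886-46072915, plus strand) encodes PRC, the serum-responsive member of the coactivator family. Its level in the 4 sedentary libraries was 8.995, 7.32, 8.33 and 8.47 CPM. At 24 h it was 11.02, 12.6, 12.4 and 14.2 CPM, at 1 wk 9.50, 8.12, 7.99 and 10.4 CPM, and at 2 wk 15.1, 14.1, 9.06 and 11.7 CPM. Every 24 h library was above every sedentary one, and the same held at 2 wk, where the lowest library (9.06 CPM) was only just above the highest sedentary one (8.995 CPM). The 1 wk libraries overlapped the sedentary range and were all below the 24 h libraries. The log2 fold change against sedentary was 0.60 ± 0.14 (SE) at 24 h, 0.12 ± 0.14 at 1 wk and 0.59 ± 0.14 at 2 wk, or 1.52-, 1.09- and 1.51-fold. Between durations it was −0.48 ± 0.14 from 24 h to 1 wk and 0.47 ± 0.14 from 1 wk to 2 wk, where 3 of 4 libraries at 2 wk exceeded all those at 1 wk. Leaving out 1 library at a time gave 0.54 to 0.66 at 24 h and 0.49 to 0.72 at 2 wk. Comparisons with sedentary mice share the same 4 control libraries, as do those that share the 24 h or 1 wk libraries.

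The Pprc1 counts behind these levels ranged from 313 to 949 reads per library. Its exons overlap those of Ldb1 on the opposite strand over 177 bases, and Ldb1 held a mean of 2148 reads per library. No source used here says whether counting used strand, so reads of that stretch may belong to either gene. Beside the Pprc1 difference at 24 h no marker list was wholly separated from sedentary, but medians differed: 139 against 95.2 CPM for the fibroblast list, 108 against 82.7 CPM for smooth muscle and mesangium, and 49435 against 57194 CPM for the proximal tubule. At 2 wk the red blood cell list ranged from 677 to 1631 CPM against 336 to 593 in sedentary libraries, and the intercalated cell list from 204 to 259 against 161 to 199. The part of these cell type markers in the Pprc1 level was not tested.

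Ppargc1a (ENSMUSG00000029167; GRCm38 chr5:51454250-51567726, minus strand), which encodes PGC-1α, was at 27.1, 31.5, 32.1 and 26.1 CPM in sedentary cortex. After 24 h it was at 27.5, 25.3, 23.8 and 20.6 CPM. It was at 24.3, 25.5, 21.5 and 39.4 CPM at 1 wk, and at 20.7, 34.7, 35.1 and 29.9 CPM at 2 wk. At 24 h 3 of the 4 libraries lay below the lowest sedentary one, and the remaining library overlapped; at 1 wk and 2 wk the running libraries lay on both sides of the sedentary range. The log2 fold change was −0.26 ± 0.17 (SE) at 24 h, −0.08 ± 0.17 at 1 wk and 0.05 ± 0.17 at 2 wk, so that none exceeded 2 SE. The coefficient of variation was 10.4% in sedentary libraries and 28.9% and 22.2% at 1 wk and 2 wk. Without replicate 4 of the 1 wk group, its highest library, the 1 wk value against sedentary was −0.29, and that against 24 h changed sign from 0.19 to −0.03.

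Ppargc1b (ENSMUSG00000033871; GRCm38 chr18:61298136-61400431, minus strand), which encodes PGC-1β, was the least expressed member per length. It was at 5.04, 4.89, 4.30 and 4.25 CPM in sedentary libraries and at 3.87, 6.20, 2.69 and 3.03 CPM at 24 h. At 1 wk it was at 4.02, 2.78, 4.01 and 8.22 CPM and at 2 wk at 3.76, 5.40, 3.15 and 4.16 CPM. In each running group 3 of 4 libraries were below the lowest sedentary library and 1 was above the highest. The log2 fold changes against sedentary were −0.23 ± 0.28, 0.04 ± 0.28 and −0.16 ± 0.28 (SE) at 24 h, 1 wk and 2 wk. That single high library decided the sign at 1 wk: without replicate 4 the value was −0.36. With 124 to 408 reads per library this gene also carried the widest errors of the 10.

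As shares of the 3 coactivator transcripts per length, Ppargc1a made up 64.0% ± 3.27 (SD, n = 4), Pprc1 19.2% ± 2.37 and Ppargc1b 16.8% ± 1.54 in sedentary cortex. At 24 h Ppargc1a was at 55.2% ± 4.64, Pprc1 at 30.3% ± 5.07 and Ppargc1b at 14.5% ± 4.51. The Pprc1 share ran from 25.4% to 36.8% at 24 h, above the sedentary 16.2% to 21.1%, and at 2 wk (19.1% to 37.0%) it overlapped the sedentary range. Ppargc1a was the most abundant of the 3 in the mean of each group.

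**Figure D2:**
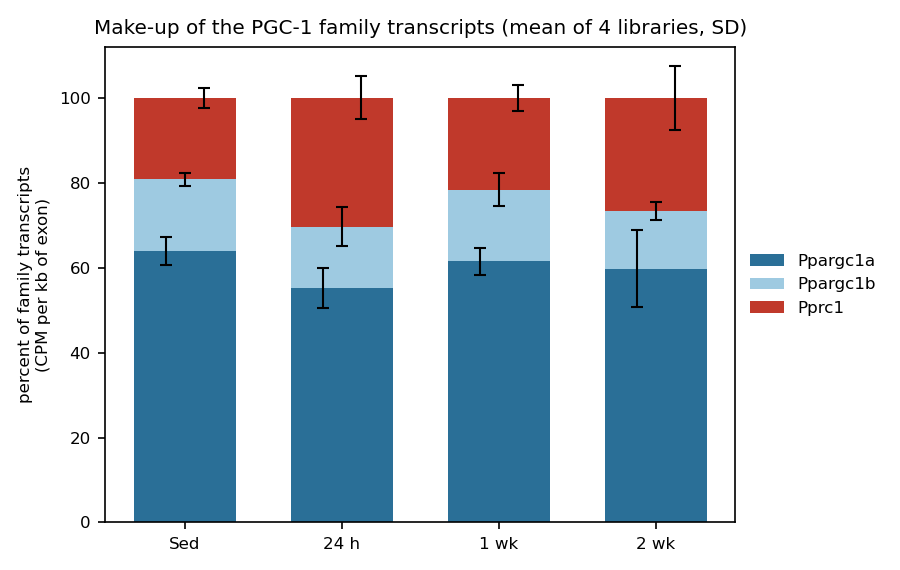
Mean share of Ppargc1a, Ppargc1b and Pprc1 in the sum of the 3 transcripts (y axis, percent of CPM per kb of exon) in the 4 groups (x axis). Error bars are the SD of each share over 4 libraries, drawn at the top of its segment; the Pprc1 segment was 19.2% in sedentary libraries and 30.3% at 24 h.

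Of the transcription factors that recruit the coactivators, Esrra (ENSMUSG00000024955; GRCm38 chr19:6910977-6921813, minus strand), the orphan nuclear receptor ERRα, was at 170.1, 171, 188 and 173 CPM in sedentary libraries. At 24 h it was at 191, 192, 204 and 191 CPM. The groups did not overlap, but the margin between the highest sedentary library (188 CPM) and the lowest 24 h library (191 CPM) was small. At 1 wk Esrra ranged from 181 to 207 CPM and at 2 wk from 161 to 200.1 CPM, and both groups overlapped the sedentary range. The log2 fold change was 0.15 ± 0.08 (SE) at 24 h, 0.13 ± 0.08 at 1 wk and −0.01 ± 0.08 at 2 wk. Against sedentary its largest difference was 1.11-fold, at 24 h. Its exons overlap Trmt112 on the opposite strand over 73 bases, and Trmt112 held a mean of 1951 reads per library.

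Gabpa (ENSMUSG00000008976; GRCm38 chr16:84834925-84863779, plus strand), the DNA-binding subunit of the ETS-family factor GABP, also called NRF2 in this field, was at 26.1, 26.4, 26.3 and 28.7 CPM in sedentary libraries. It was at 26.5, 24.7, 22.8 and 22.6 CPM at 24 h, where 3 of 4 libraries were below the sedentary range. At 1 wk it spread from 20.6 to 33.8 CPM and at 2 wk from 22.1 to 31.7 CPM, on both sides of the sedentary libraries. The log2 fold changes were −0.15 ± 0.13, −0.06 ± 0.13 and −0.05 ± 0.13 (SE) at 24 h, 1 wk and 2 wk. Its exons overlap those of Atp5j on the opposite strand over 397 bases, and Atp5j held a mean of 17850 reads per library, so the Gabpa level is uncertain if counting ignored strand.

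Nrf1 (ENSMUSG00000058440; GRCm38 chr6:30047988-30153458, plus strand), nuclear respiratory factor 1, which binds GC-rich sites in promoters of respiratory chain genes, ranged from 13.1 to 15.2 CPM in sedentary libraries, 14.2 to 15.4 at 24 h, 13.2 to 15.2 at 1 wk and 13.5 to 15.6 at 2 wk. All 3 running groups overlapped the sedentary one, and the log2 fold changes were 0.10, 0.03 and 0.09, each with an SE of 0.09.

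Tfam (ENSMUSG00000003923; GRCm38 chr10:71225464-71238280, minus strand), the packaging protein and transcription factor of mitochondrial DNA, was at 52.9, 56.6, 56.5 and 51.8 CPM in sedentary cortex. It was at 53.7, 49.98, 48.9 and 55.0 CPM at 24 h and at 51.9, 53.9, 53.4 and 48.7 CPM at 1 wk. At 2 wk it was at 52.1, 47.9, 48.7 and 47.8 CPM, and 3 of these 4 libraries lay below the lowest sedentary one. The group means stepped from 54.4 CPM in sedentary cortex to 51.9, 52.0 and 49.1 CPM at 24 h, 1 wk and 2 wk. The log2 fold change at 2 wk was −0.15 ± 0.07 (SE), and leaving out 1 library at a time kept it between −0.18 and −0.13. This value was just over 2 SE, but its unadjusted edgeR p was not under 0.05, a cut that 7.26% of all genes passed at 2 wk against sedentary.

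Polrmt (ENSMUSG00000020329; GRCm38 chr10:79736123-79746581, minus strand), the mitochondrial RNA polymerase, ranged from 40.1 to 46.9 CPM in sedentary libraries, 41.1 to 49.8 at 24 h, 42.2 to 52.7 at 1 wk and 43.0 to 46.9 at 2 wk. Tfb2m (ENSMUSG00000026492; GRCm38 chr1:179528055-179546267, minus strand), its initiation factor, ranged from 12.6 to 15.2 CPM, 13.5 to 14.6, 12.99 to 16.7 and 13.01 to 14.5 in the same order. Both genes overlapped the sedentary range at each duration. Their log2 fold changes against sedentary lay between 0.04 and 0.13 with SEs of 0.09 to 0.10. The 3 parts of the transcription apparatus thus did not share a direction in their means, with Tfam lower and Polrmt and Tfb2m higher than sedentary. These amounts were small, and none had an unadjusted edgeR p under 0.05.

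Lonp1 (ENSMUSG00000041168; GRCm38 chr17:56614297-56626887, minus strand) encodes the matrix protease that degrades damaged proteins and unbound TFAM. It was at 215, 203, 162 and 196 CPM in sedentary libraries, 209.9, 205, 200.4 and 223 at 24 h, 242, 190.1, 197 and 210.2 at 1 wk, and 237, 228, 174 and 219 at 2 wk. At 2 wk 3 of 4 libraries exceeded the highest sedentary one, and the remaining library lay inside the sedentary range. The log2 fold changes were 0.11, 0.11 and 0.15 at 24 h, 1 wk and 2 wk, each with an SE of 0.11. Without sedentary replicate 3, the lowest of the 16, they were 0.04 at 24 h and 0.07 at 2 wk.

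**Figure D3:**
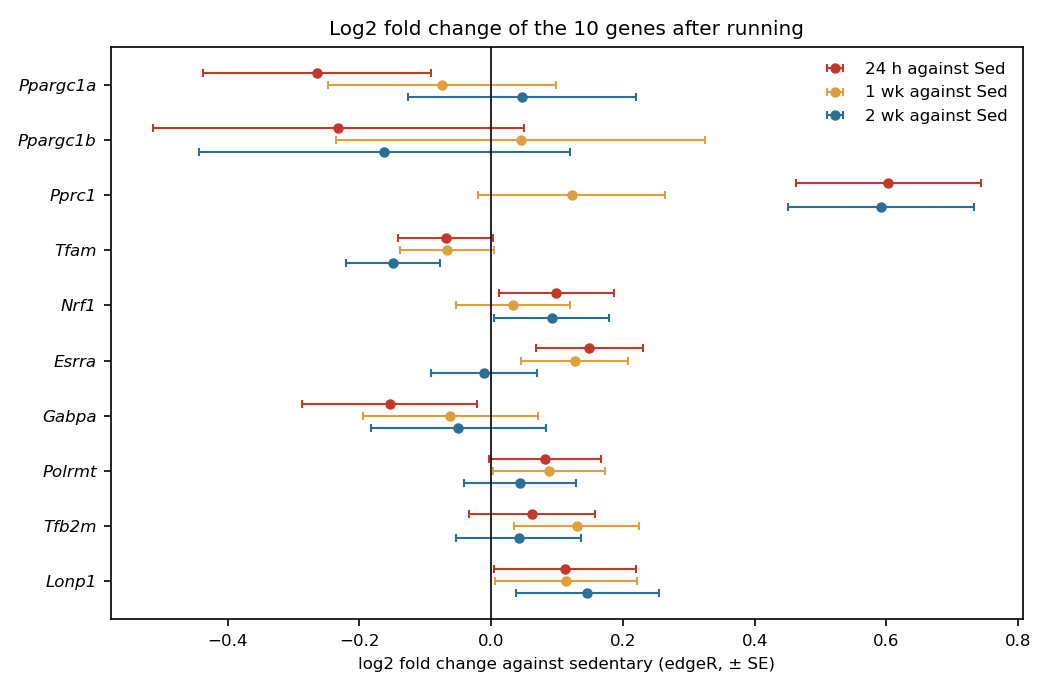
Log2 fold change against the sedentary group (x axis, edgeR estimate) for the 10 genes (y axis) at 24 h, 1 wk and 2 wk of running; bars are ± 1 SE. Pprc1 stands at 0.60 and 0.59 at 24 h and 2 wk, and the other 9 genes lie between −0.26 and 0.15.

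None of the 10 genes was called by edgeR at an adjusted p under 0.05 in any of the 6 comparisons, and the same table called 0% of all genes in 5 of them and 0.0124% at 2 wk against 24 h. At 24 h against sedentary, Pprc1 was the one member with an unadjusted edgeR p under 0.05, beside 8.92% of all genes. DESeq2 and limma voom with quality weights each called Pprc1 there at an adjusted p under 0.05, beside 0.533% and 0.366% of all genes. Pprc1 and Esrra lay wholly above the sedentary libraries, as did 3.55% of all genes, and no member lay wholly below, as 3.66% did. The median log2 fold change of the members was 0.07 beside −0.01 for all genes.

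At 1 wk against sedentary 0 members had an unadjusted edgeR p under 0.05, beside 6.05% of all genes. Neither DESeq2 nor voom called any at an adjusted p under 0.05 (0.093% and 0.0372% of all genes). No member was separated, beside 1.71% of genes wholly above and 2.51% wholly below. At 2 wk against sedentary Pprc1 alone had an unadjusted edgeR p under 0.05, beside 7.26% of all genes. It was also the 1 member wholly above, as were 2.29% of genes, and none was wholly below, as were 2.61%. DESeq2 called Pprc1 at 2 wk, beside 0.211% of genes, and voom called no member, beside 0.0434%. The median log2 fold change of the members was 0.07 at 1 wk and 0.04 at 2 wk, with all genes at 0.00 and 0.01.

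Between 24 h and 1 wk, Pprc1 was again the 1 member with an unadjusted edgeR p under 0.05 (7.15% of all genes). It was also the 1 member wholly lower at 1 wk, as were 1.85% of genes, while 1.07% were wholly higher. Between 24 h and 2 wk no member reached an unadjusted edgeR p under 0.05, beside 9.61% of genes, and none was separated, beside 1.70% higher and 1.56% lower. Between 1 wk and 2 wk Pprc1 alone had an unadjusted edgeR p under 0.05, beside 4.58% of genes, and no member was separated, beside 0.930% higher and 0.657% lower. DESeq2 called no member in the comparisons between durations, beside 0.366% of genes at 1 wk against 24 h, 0.242% at 2 wk against 24 h and 0.0248% at 2 wk against 1 wk. Nor did voom, beside 0%, 0.0248% and 0.0062% in that order.

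Replicate 4 of the 1 wk group had the highest level of all 16 libraries for Ppargc1a, Ppargc1b, Gabpa, Polrmt and Tfb2m. Its thick ascending limb markers were 1.31 times and its proximal tubule markers 0.878 times the median library. To see whether such libraries shared a general property, a length index was computed for each as the median deviation of log2 CPM of the longest 25% of protein-coding genes (at least 6966 exonic bases) minus that of the shortest 25% (at most 2866). The index was chosen after the levels had been seen. It was 0.36 in that library, 0.40 in replicate 2 of the 2 wk group, which was also the deepest library, and −0.39 in replicate 3 of the 1 wk group. Sedentary libraries ranged from −0.04 to 0.11, 24 h libraries from −0.21 to 0.05, 1 wk libraries from −0.39 to 0.36 and 2 wk libraries from −0.04 to 0.40, so the groups overlapped.

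Because the levels of these genes prompted the index, its relations with them are given over the 16 libraries as a description, without p. Pearson's r of log2 CPM with the index was 0.86 for Gabpa (Spearman rho 0.73), 0.72 for Ppargc1a (rho 0.67), 0.69 for Ppargc1b (rho 0.71) and −0.69 for Esrra (rho −0.69). Higher levels of Gabpa and of both PGC-1α and PGC-1β transcripts thus came with libraries rich in long transcripts, and higher Esrra with libraries rich in short ones. Without the 2 libraries farthest from the median index, r was 0.77, 0.65, 0.84 and −0.51, without replicate 4 of the 1 wk group it was 0.81, 0.63, 0.57 and −0.76, and with group means subtracted it was 0.91, 0.71, 0.77 and −0.64. The 4 genes are between 3990 and 6592 exonic bases long, so none belongs to either set that made the index. This was not particular to these genes: 47.4% of 11801 genes had an r of at least 0.5 in size, beside 4 of the 10 members.

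For Pprc1 r was 0.27 (rho 0.22), 0.41 with group means subtracted and −0.09 without the 2 farthest libraries. Polrmt and Tfb2m had an r of 0.43 and 0.41, which was 0.61 and 0.62 with group means subtracted and 0.20 and 0.17 without replicate 4 of the 1 wk group. With the index as a covariate in the edgeR model, the log2 fold changes of Pprc1 against sedentary were 0.64 at 24 h and 0.55 at 2 wk. Those of Ppargc1a and Gabpa at 24 h went from −0.26 to −0.18 and from −0.15 to −0.07, that of Ppargc1b from −0.23 to −0.10, and that of Esrra from 0.15 to 0.12. The 2 wk value of Tfam was −0.13 with the covariate and −0.15 without it.

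**Figure D4:**
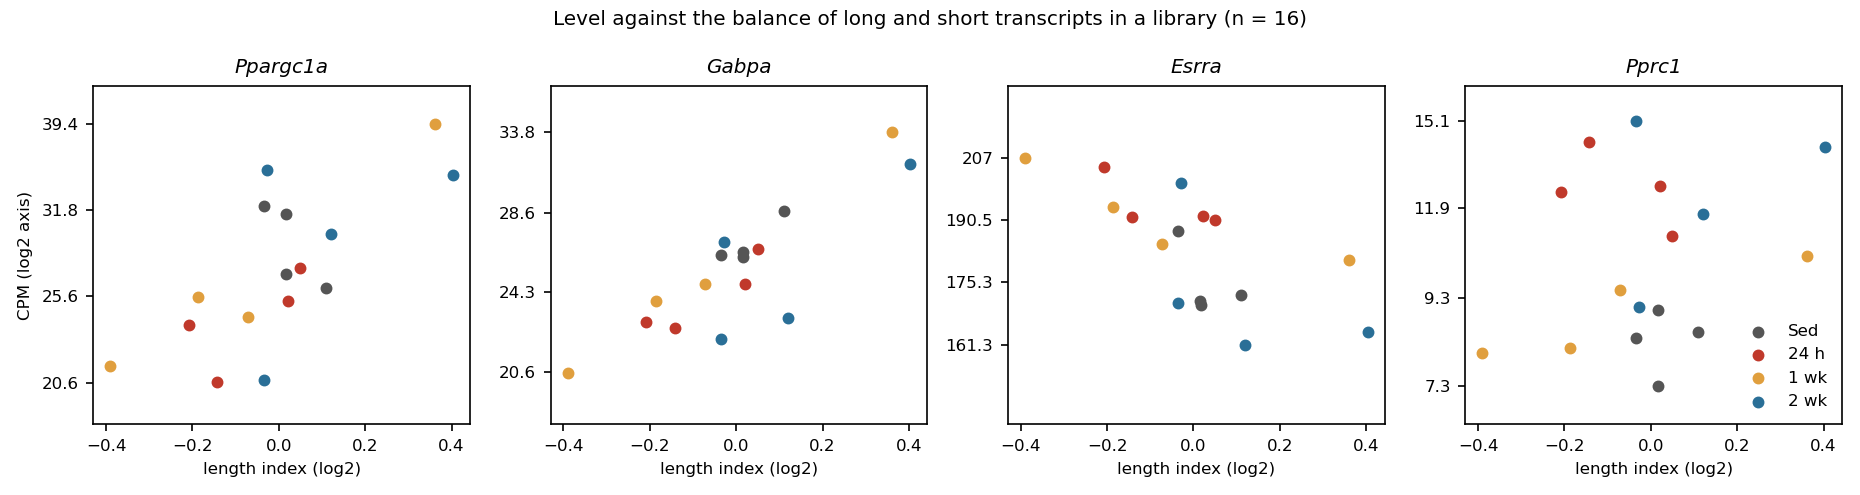
Level in CPM (y axis, log2 scale) of Ppargc1a, Gabpa, Esrra and Pprc1 against the length index of the library (x axis, log2 difference of long and short genes), 1 point per library, coloured by group. Ppargc1a and Gabpa climb with the index (r = 0.72 and 0.86), Esrra declines (−0.69), and for Pprc1 r is 0.27.

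Among the 45 pairs of members, a set of relations also added after the levels had been seen, 23 correlated positively and the median Pearson r was 0.05. They are given without p for the same reason. Ppargc1a and Gabpa had the highest r, 0.83 (rho 0.84). This r was 0.77 without the 2 libraries farthest from the median of Ppargc1a, 0.76 without replicate 4 of the 1 wk group and 0.82 with group means subtracted. After regressing both genes on the length index it was 0.57.

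Transcripts of the mitochondrial genome were counted in the same libraries, but 6 of its 15 listed genes (mt-Co2, mt-Co3, mt-Nd3, mt-Nd4l, mt-Atp6 and mt-Atp8) had group means of 0 to 0.0627 CPM beside mt-Co1 at 10913 CPM in sedentary cortex. As every cell uses these genes, the share below reflects what was counted and is not the whole output of the genome. All genes annotated on the mitochondrial chromosome, not only those 15, made up 3.61% to 4.52% of the counts in sedentary libraries. The share was 2.16% to 2.71% at 24 h, 2.66% to 4.10% at 1 wk and 2.99% to 4.24% at 2 wk. The 24 h libraries were thus all below the sedentary ones. None of the 10 members had an adjusted permutation p under 0.05 for a relation with this share over the 16 libraries. The permutation ignored the groups, which differ in the share, and the members were selected with earlier results known. It therefore cannot decide whether a member and the share are related. Esrra came nearest, with r = −0.58 (permutation p = 0.0215, adjusted p = 0.215; rho −0.52, adjusted p = 0.433), −0.60 without the 2 farthest libraries and −0.26 with group means subtracted. For Tfam r was −0.01 (adjusted permutation p = 0.965), for Polrmt −0.21, for Tfb2m −0.14 and for Lonp1 −0.17 (adjusted p = 0.677 for each of these 3).

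**Figure D5:**
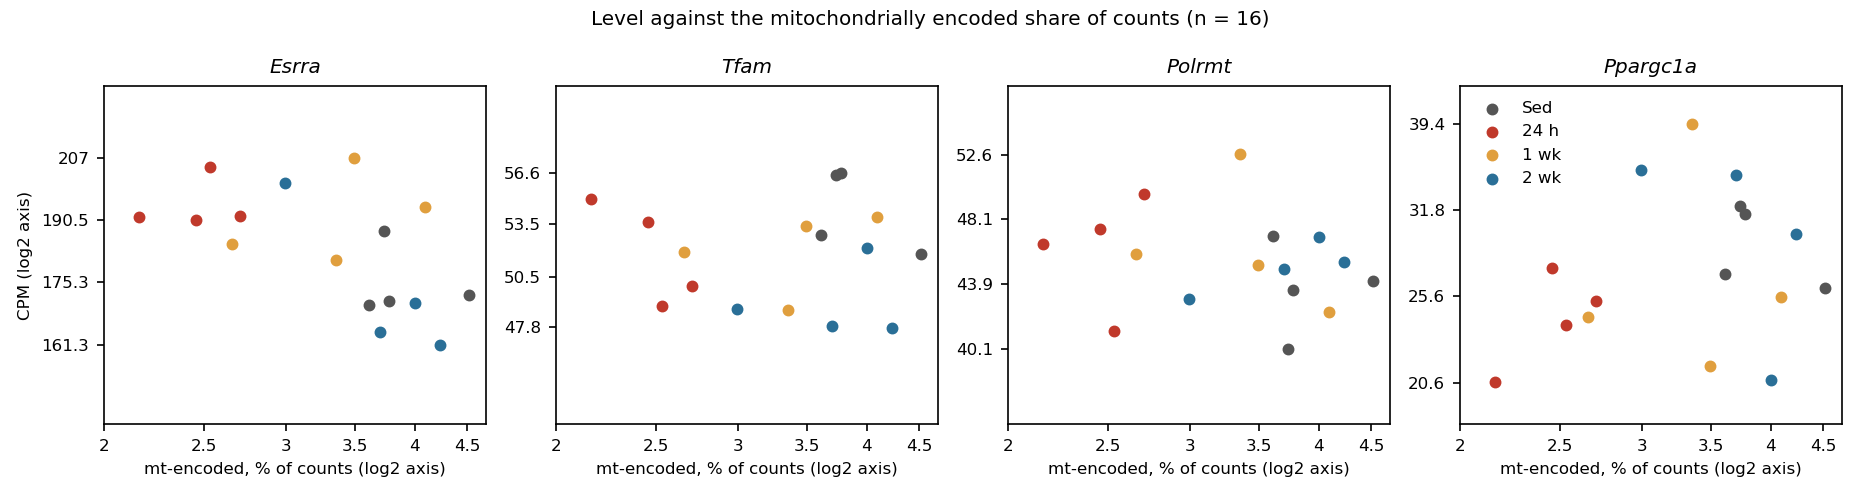
Level in CPM (y axis, log2 scale) of Esrra, Tfam, Polrmt and Ppargc1a against the percent of counts on mitochondrially encoded genes (x axis, log2 scale), 1 point per library, coloured by group. The 24 h libraries sit at 2.16% to 2.71% on the left. For the genes shown r lies between −0.58 and 0.26, and none had an adjusted permutation p under 0.05.

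Another 149 pathway genes in 6 lists were taken through the same fit, and edgeR called 0 of their genes in any comparison at an adjusted p under 0.05. In the mitochondrially encoded list 9 of 15 genes were tested. At 24 h against sedentary 7 of the 9 were lower and 0 higher at an unadjusted p under 0.05 (8.92% of all genes), and DESeq2 and voom each called 6 at an adjusted p under 0.05 (0.533% and 0.366% of all genes). The remaining 2 were the ribosomal RNAs mt-Rnr1 and mt-Rnr2, with log2 fold changes of 0.02 ± 0.25 and 0.27 ± 0.34 (SE). Their libraries at 24 h were widely spread, at 466 ± 215 and 792 ± 494 CPM (SD), so these values do not settle a direction. The median log2 fold change of the list was −0.72, beside −0.01 for all genes. mt-Cytb, the cytochrome b of complex III, was at 6661 ± 502 CPM at 24 h against 11826 ± 1452 in sedentary cortex (SD, n = 4; log2 fold change −0.83 ± 0.15, edgeR adjusted p = 0.0972), and mt-Nd2 of complex I at 1665 ± 223 against 2843 ± 369 (−0.77 ± 0.15, adjusted p = 0.0972). The groups did not overlap for either gene. At 1 wk and 2 wk 0 of the 9 genes had an unadjusted p under 0.05 against sedentary in edgeR, and DESeq2 and voom called none. Against 24 h, 7 of the 9 were higher at 1 wk and 6 at 2 wk at an unadjusted p under 0.05 (7.15% and 9.61% of all genes), and at an adjusted p under 0.05 DESeq2 called 2 and 5 genes of the list (0.366% and 0.242% of all genes) and voom 0. Proximal tubule markers summed to 47452 to 55868 CPM at 24 h and 54592 to 62170 in sedentary libraries, with overlap; their part in this was not tested. In the other 5 lists DESeq2 and voom called no gene in any comparison.

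In the list of mitochondrial DNA replication and nucleotide supply (19 of 19 tested) 1 gene was higher and 1 lower at an unadjusted p under 0.05 at 24 h, beside 8.92% of all genes, and the median log2 fold change was 0.00. Primpol, a primase that restarts stalled replication, was at 4.00 ± 0.631 CPM at 24 h against 5.21 ± 0.33 (log2 −0.38 ± 0.13, edgeR adjusted p = 0.39), without overlap. Mgme1, an exonuclease of mitochondrial DNA, was at 19.1 ± 3.39 against 15.5 ± 1.29 CPM (0.30 ± 0.12, adjusted p = 0.488). Top1mt, the mitochondrial topoisomerase, was at 34.1 ± 2.23 CPM in sedentary cortex and at 39.4 ± 3.82 and 39.6 ± 5.87 at 1 wk and 2 wk (adjusted p = 0.846 and 0.685). Its 24 h level was 37.8 ± 2.94 CPM.

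Of 25 tested genes for mitochondrial transcription and RNA processing, 0 had an unadjusted p under 0.05 at 24 h and 1 was higher at both 1 wk and 2 wk, beside 8.92%, 6.05% and 7.26% of all genes. That gene was Elac2, the 3′ tRNA-processing nuclease, at 26.4 ± 2.7 CPM in sedentary cortex, 31.0 ± 2.1 at 1 wk and 30.9 ± 2.75 at 2 wk (edgeR adjusted p = 0.766 and 0.629). At 24 h Elac2 was at a similar 30.3 ± 2.76 CPM (edgeR adjusted p = 0.565). Fastk, an RNA-binding protein of the matrix, was above the sedentary libraries without overlap at 1 wk, at 92.1 ± 2.43 against 84.8 ± 1.53 CPM (adjusted p = 0.909).

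Partners and regulators of the coactivators (39 of 39 tested) had 3 genes lower and 0 higher at an unadjusted p under 0.05 at 24 h, 4 lower and 1 higher at 1 wk, and none at 2 wk. Of all genes 8.92%, 6.05% and 7.26% had such a p, in either direction. Their median log2 fold changes were −0.04, −0.03 and 0.09. Nrip1, a corepressor that opposes PGC-1α, was at 11.4 ± 1.86 CPM at 24 h against 15.2 ± 1.7 (−0.42 ± 0.18, edgeR adjusted p = 0.51). Mef2c, a factor that drives Ppargc1a in muscle, was at 2.37 ± 0.344 CPM at 24 h and 2.32 ± 0.238 at 1 wk against 3.20 ± 0.688 (adjusted p = 0.435 and 0.658). Ppard, a nuclear receptor of fatty acid metabolism, was at 28.3 ± 7.32 CPM at 1 wk and 26.6 ± 5.51 at 2 wk against 20.4 ± 4.08 (adjusted p = 0.713 and 0.685). Its 24 h level was similar, at 26.2 ± 4.42 CPM. For each of these the groups overlapped.

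Of 21 tested mitochondrial proteases and chaperones, 0 had an unadjusted p under 0.05 at 24 h or 1 wk, and 1 was lower at 2 wk (7.26% of all genes), Yme1l1, the inner membrane protease (56.7 ± 10.6 against 68.7 ± 9.86 CPM, edgeR adjusted p = 0.641). Dnaja3, a matrix co-chaperone, lay above the sedentary libraries without overlap at 24 h, at 182 ± 8.77 against 164 ± 5.56 CPM (adjusted p = 0.583). Among 30 nuclear targets of PGC-1, ERR and NRF1, 2 were higher at 24 h, 0 at 1 wk and 1 at 2 wk at an unadjusted p under 0.05, and 0 were lower. These counts lie below the shares of all genes (8.92%, 6.05% and 7.26%). At 24 h these were Idh3a, a citric acid cycle dehydrogenase subunit (184 ± 14.4 against 161 ± 7.31 CPM, adjusted p = 0.534), and Fndc5, the irisin precursor (4.80 ± 1.32 against 3.35 ± 0.744 CPM, adjusted p = 0.467). At 2 wk it was Cs, citrate synthase (312 ± 19.5 against 270.0 ± 23.2 CPM, adjusted p = 0.605). The median log2 fold changes of the targets were 0.06, 0.07 and 0.03 at 24 h, 1 wk and 2 wk.

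For each member the genes with the most similar pattern were taken by the highest Pearson r of log2 CPM over the 16 libraries, among 11801 genes whose mean log2 CPM was 1 or more. For Pprc1 these were Zyx (r = 0.88), which encodes the focal adhesion protein zyxin, Actn1 (0.87), an actin cross-linker, and Ppme1 (0.85), a phosphatase methylesterase. Zyx was at 52.0 CPM in sedentary cortex, 63.7 at 24 h, 57.0 at 1 wk and 67.3 at 2 wk. For Ppargc1a they were Fam120c (0.94), Cpeb2 (0.90) and Fcho2 (0.90), and for Gabpa they were Rock1 (0.95), Usp9x (0.95) and Slmap (0.95). For Esrra the list was 2410004B18Rik (0.94), Nudt5 (0.93) and Ric8a (0.93), and for Lonp1 it was Srp68 (0.96), Sf3b2 (0.96) and Sart1 (0.96). Nrf1 was most like Sfxn1, a mitochondrial serine carrier (0.89), Tfam most like Nsmce4a (0.84), Polrmt most like Usp20 (0.87), Tfb2m most like Pkp2 (0.86) and Ppargc1b most like Adgrl2 (0.90). No member was among the nearest genes of another. With so many genes searched, such values are a description of these 16 libraries.

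Promoter windows, from 250 bases before to 50 after a RefSeq start (GRCm38.p6), were found for 9 of the 10 members, in 10 windows. The upstream parts that hold no annotated exon base are shown for Pprc1, the member with the largest differences between groups, for Polrmt, with the most motif matches, and for Esrra, itself both a target and a partner of the coactivators. Capitals mark matches to the NRF1 motif (GCANGCGC) or the ETS motif of GABP (CCGGAAG) on either strand, and each sequence runs 5′ to 3′ on the strand of its gene. The Pprc1 stretch is chr19:46056289-46056538 (plus strand), inside the longer GENCODE gene, the Polrmt stretch chr10:79746582-79746831 (minus strand) and the Esrra stretch chr19:6921814-6922058 (minus strand).
Pprc1: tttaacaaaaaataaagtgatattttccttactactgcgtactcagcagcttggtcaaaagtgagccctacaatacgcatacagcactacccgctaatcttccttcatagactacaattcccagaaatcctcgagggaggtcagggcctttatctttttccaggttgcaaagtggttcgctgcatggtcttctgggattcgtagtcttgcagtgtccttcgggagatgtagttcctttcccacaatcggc
Polrmt: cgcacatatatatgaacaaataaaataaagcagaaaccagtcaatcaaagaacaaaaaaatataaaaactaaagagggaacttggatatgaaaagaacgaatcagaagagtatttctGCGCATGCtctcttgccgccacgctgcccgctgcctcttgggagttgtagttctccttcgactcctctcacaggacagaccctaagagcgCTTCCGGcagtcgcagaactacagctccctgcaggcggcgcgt
Esrra: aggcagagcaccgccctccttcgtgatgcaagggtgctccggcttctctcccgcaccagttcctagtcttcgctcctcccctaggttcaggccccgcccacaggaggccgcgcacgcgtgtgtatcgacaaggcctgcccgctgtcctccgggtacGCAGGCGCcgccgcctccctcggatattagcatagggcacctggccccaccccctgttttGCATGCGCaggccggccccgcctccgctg
In Polrmt an NRF1 match lies at −133 to −126 and an ETS match at −43 to −37 from the start, and further NRF1 matches at −6 to 1 and 0 to 7 overlap each other at the start itself, beyond or at the edge of the part shown. In Esrra NRF1 matches lie at −94 to −87 and −34 to −27. The Pprc1 window holds none of the 5 motifs searched.

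Over all 10 windows of the members, 3 held an NRF1 match (Polrmt, Esrra and Tfb2m), beside 9.61% of 32851 windows of the same length. An ETS match was in 3 (Polrmt, Tfam and Gabpa), beside 8.86% of windows, and 1, that of Gabpa, held the YY1 motif (AANATGGCG), beside 2.38%. The cyclic AMP response element (TGACGTCA) and the ERR motif (TCAAGGTCA) were in 0 of the 10, beside 1.79% and 0.423% of windows. A match describes letters in a window and is not a binding site.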

How the data were processed

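PolyA RNA of mouse kidney cortex was made into strand-marked libraries, per the labels' protocols. The authors deposited raw counts per gene, whole numbers made with HTSeq 0.10.0 on GRCm38 (mm10) after FastQC 0.10.1, per the submitters' processing notes. Aligner, strand setting and annotation are not given in any source used here. Of 24 count columns, 16 matched a sample by name, and 8 that matched none were not used. Symbols and positions came from GENCODE M21, which names 52133 IDs (94.08%, with 99.39% of the counts).

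Genes were filtered with filterByExpr (16126 kept), scaled by TMM and fitted with the robust quasi-likelihood model of edgeR 4.0.16, all 16 libraries in 1 fit, with Benjamini-Hochberg adjustment at 0.05. CPM are TMM-scaled. Relations of the members with the mitochondrial share and the length index used their log2 CPM without a prior count. The log2 CPM of all genes, from which the length index was made, used a prior count of 2. DESeq2 1.42.0, limma 3.58.1 (voom with quality weights), other scalings, filters and sets of libraries were alternatives. The model fit was tested on simulated data. Libraries of the same group differed beyond sampling noise. The members, the lists and the tests were chosen with earlier results of these data known. The 10 members were named always. From each list the 2 genes of smallest p in each comparison with sedentary mice could be named, since none passed, and for each member the 3 most similar genes. Promoter sequences are from RefSeq (GRCm38.p6), matched by symbol.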

Additional observations from a re-analysis of the deposited data

Results flagged for a closer look

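Levels of each member were examined for a library far from the other 3 of its group (Dixon's criterion for 4 values), in 40 groups of 4; chance marks about 1 in 20 such groups. There were 3. Esrra in sedentary replicate 3 was at 188 CPM, with the other 3 libraries between 170.1 and 173 CPM (a gap of 0.862 of the range). Esrra in replicate 3 of the 24 h group was at 204 CPM, with the others between 191 and 192 CPM (0.926 of the range). Gabpa in sedentary replicate 4 was at 28.7 CPM, with the others between 26.1 and 26.4 CPM (0.876 of the range). Without these libraries the 24 h log2 fold change of Esrra was 0.19 and 0.12, beside 0.15 with all, and that of Gabpa was −0.12 beside −0.15.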

How the results depend on the processing

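The 60 log2 fold changes of the members were recomputed under 26 alternatives each, 1560 values in all, and 0 moved by as much as 1 SD between libraries. For the 16 alternatives that leave out 1 library this says little, since such a step can hardly move a mean of 4 libraries that far. Values still moved: under another setting Ppargc1b at 1 wk against sedentary went from 0.045 to −0.397. Pprc1 was higher than sedentary at 24 h and 2 wk under all 26. It was called at 24 h under 3 of them (DESeq2, voom and a fit of these 2 groups only), which called 86, 59 and 28 of all genes. At 2 wk it was called under 2, among them DESeq2, which called 34 of all genes. As the members were selected with earlier results known, nothing is read from these calls. Signs of other members turned under some alternatives, among them leaving out replicate 4 of the 1 wk group.

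Counts of all genes called by edgeR were 0 in 5 comparisons and 2 at 2 wk against 24 h, and they depended on the method. At 24 h against sedentary they were 2 with library size only, 9 with no filter, 28 with these 2 groups only, 4 with the length index as a covariate (added after seeing the data), 59 with voom and 86 with DESeq2. At 1 wk against sedentary they were 6 with voom and 15 with DESeq2. At 2 wk against sedentary they were 5 with no filter, 2 with these groups only, 7 with voom and 34 with DESeq2. At 1 wk against 24 h DESeq2 called 59. At 2 wk against 24 h they were 4 each with library size only, nuclear genes only, the filter of 1 CPM in 4 libraries and voom, 8 with no filter and 39 with DESeq2. At 2 wk against 1 wk voom called 1 and DESeq2 4. Leaving out 1 replicate at a time gave 0 to 5, 0 to 1, 0 to 8, 0 to 2, 0 to 7 and 0 to 0 in the same order. The libraries whose removal moved a count were 1 wk replicate 1 (to 5) and 3 (to 1) in the first, 1 wk replicate 1 (to 1) in the next, 24 h replicate 3 and 2 wk replicate 2 (to 2 each) and 2 wk replicate 3 (to 8) at 2 wk against sedentary, and 24 h replicate 2 (to 2) at 1 wk against 24 h. At 2 wk against 24 h they were 24 h replicates 1 and 4 (to 1 each) and 2 (to 7), and 2 wk replicates 2 (to 0), 3 (to 6) and 4 (to 1). With a replicate block the counts were 5 at 2 wk against sedentary and 11 at 2 wk against 24 h; same-numbered libraries did not deviate together (24 pairs, r from −0.239 to 0.375), so the numbers were not taken as pairs. The cause of these differences was not tested. Ppargc1b had the fewest reads of the members, with 124 to 408 per library.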
